A study of Mus musculus with 8 samples.

Results

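The BCL2 family decides whether the outer mitochondrial membrane stays closed or opens to start apoptosis, and its RNAs were followed here through oocyte maturation and after manipulation of an RNA decay adaptor. The members were taken by gene symbol as 10 genes that include guardians of the membrane (*Bcl2l10*, *Mcl1*, *Bcl2*, *Bcl2l1*, *Bcl2l2*), pore-forming effectors (*Bax*, *Bak1*, *Bok*) and BH3-only activators (*Bid*, *Bcl2l11*). Of these 10, 7 had a row in the tables of all 8 libraries and 6 passed a filter of at least 1 TPM in at least 2 libraries, among 13968 genes that passed it. *Bcl2l2* was listed but stayed below the filter, *Bcl2* had a row only in the tables of injected oocytes, and *Bak1* and *Bok* were not analysed here because they had no row in the tables used. *Mcl1* passed only through the GV libraries, the group in which it was high, so its fitted difference from GV is given as a value, and the counts and medians of the comparisons with GV are over the other 5 members.

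Anti-apoptotic members bind and hold both the effectors and the activators, and effectors that escape this hold assemble into pores that release cytochrome c. *Bcl2l10*, also called Diva or Boo, is usually grouped with the anti-apoptotic members, and its expression is concentrated in the ovary and the egg. MCL1 is known to be needed for the survival of growing oocytes. A fully grown oocyte transcribes almost nothing, so that RNA levels change from the GV stage onwards through decay and through changes of the poly(A) tail.

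All oocytes came from superovulated, 6-week-old female Crl:CD1 (ICR) mice, an outbred stock. GV oocytes, arrested in prophase of meiosis I with an intact germinal vesicle, and MII oocytes, matured to metaphase II, were uninjected oocytes of the control group from in vitro culture. Btg4wt and Btg4tm oocytes were MII oocytes microinjected with capped cRNA for Myc-tagged BTG4, an adaptor that brings the CCR4-NOT deadenylase to maternal mRNAs, in the wild-type form or with a threonine and the 2 adjoining serines replaced by alanine. All 4 groups kept their own *Btg4* gene, so the injected forms acted beside endogenous BTG4, and no library of oocytes injected with another RNA was among the 8. The paper states that both injected forms seemed to lower the endogenous protein. Each group had 2 libraries of 15 pooled oocytes. Whether the libraries of a group came from separate animals or cultures is not stated, so p-values measure only the spread between these libraries, which may be technical.

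Libraries were primed with oligo(dT), and values were deposited as TPM, transcripts counted against a fixed library total after correction for gene length. Levels can therefore be compared between genes as well as between groups, but they are shares, the sequencing depth is unknown, and a shorter poly(A) tail and fewer molecules cannot be told apart. Likewise, in these pools an RNA lost from some oocytes and less of it in every oocyte cannot be told apart. Below, TPM were scaled between libraries by the median of ratios (scaled TPM), and differences were fitted with limma on log2(scaled TPM + 1) over all 13968 genes, a scale that understates the change of low genes. Calls required both a Benjamini-Hochberg adjusted p-value below 0.05 and a log2 fold change beyond 1 in either direction.

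The libraries held all 12 oocyte markers examined, which summed to between 40106 and 52652 TPM. Of 12 cumulus and granulosa cell markers, 3 had a row in all tables (*Cyp19a1*, *Inha* and *Ptgs2*) and summed to between 21.1 and 29.1 TPM. Across genes, Pearson's r between the replicates of a group was 0.982 to 0.987. Mitochondrially encoded RNAs made up 0.625% and 0.651% of TPM in GV oocytes, 2.71% and 2.60% in MII oocytes, 2.07% and 1.77% in Btg4wt oocytes, and 0.774% and 1.03% in Btg4tm oocytes, so this share moved with the groups. Scaled TPM of *Btg4* itself were 2650 and 2794 in GV oocytes, 5792 and 6002 in MII oocytes, 5178 and 5510 in Btg4wt oocytes, and 3725 and 4068 in Btg4tm oocytes. The injected cRNA and the maternal RNA cannot be told apart in these values, and all 4 injected libraries were below both MII libraries. The *Btg4* level thus showed no excess that would check the labels of injection, and Btg4wt and Btg4tm below stand for the libraries so labelled. The paper shows expression of both injected forms by immunoblot, a measure of protein that these RNA values do not replace.

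Because both the oligo(dT) primer and the deadenylase act at the 3′ end, the last 30 bases of the annotated transcripts of the more abundant members are shown, on GRCm38 with GENCODE M21 transcripts. Capitals mark the poly(A) signal AATAAA:
Bcl2l10 (chr9:75351603-75351632, plus strand): caaattcttAATAAAtgtatgcgctttttt
Bcl2l1 (chr2:152780672-152780701, minus strand): gttcagtAATAAAtggtgtctgtgactctg
Bax (chr7:45461697-45461726, minus strand): gccAATAAAcctcaggtccactttggattg
Bcl2l11 (chr2:128162518-128162547, plus strand): tatataAATAAAacttgcgactagctttca

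In the transcript sequence, AATAAA or ATTAAA was present in the last 40 bases of 8 of the 10 members' transcripts and of 76.6% of the 11096 transcripts of tested genes examined. Cytoplasmic polyadenylation in maturing oocytes is known to use a second element, of which the form TTTTAT was searched in the last 150 bases. It was present in 1 of the 10 members and in 19.4% of the 11096 transcripts. That member was *Bcl2l11*, whose transcript held it at 45 and 27 bases from its end, marked here by capitals:
Bcl2l11 first copy (chr2:128162485-128162514, plus strand): agaaactcaatcTTTTATgttcttaatgaa
Bcl2l11 second copy (chr2:128162503-128162532, plus strand): gttcttaatgaaTTTTATataaataaaact

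The second window also contains the AATAAA printed above for *Bcl2l11*. These matches describe letters in the annotated ends, and other forms of the element were not searched.

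*Bcl2l10* was among the most abundant RNAs of the oocyte, and no other member came near it. Its gene (ENSMUSG00000032191) lies on chromosome 9 from 75347758 to 75351632 on the plus strand, with a transcript of 1220 bases in 2 exons, of which 576 are coding and 499 lie in the 3′ untranslated region. It had 7975 and 7093 scaled TPM in GV oocytes, 16671 and 16500 in MII oocytes, 14225 and 17173 in Btg4wt oocytes, and 12544 and 12685 in Btg4tm oocytes. Both GV libraries were the lowest, both Btg4tm libraries came next, and the Btg4wt libraries lay on either side of the MII libraries. In TPM as deposited it ranked 8 among all genes in the GV libraries, 6 in the MII and Btg4wt libraries, and 5 in the Btg4tm libraries. *Dppa3*, *Elobl*, *H1f8* and *Ldhb* ranked above it in all 8 libraries. *Bcl2l10* alone accounted for 0.851% and 0.788% of TPM in GV oocytes and for 1.63% and 1.60% in MII oocytes. Its share of the summed TPM of the members that had a row was between 98.6% and 99.7% in the 8 libraries.

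The next most abundant guardian was *Bcl2l1*, which encodes BCL-XL and lies on chromosome 2 from 152780668 to 152831728 on the minus strand. Its scaled TPM were 69.8 and 68.7 in GV oocytes, 38.5 and 40.8 in MII oocytes, 46.1 and 45.9 in Btg4wt oocytes, and 57.5 and 41.7 in Btg4tm oocytes. The GV libraries were above all others, and the Btg4tm replicates spread over a range that took in both Btg4wt libraries. Within each library *Bcl2l10* exceeded *Bcl2l1* between 103 and 433 times.

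*Mcl1*, on chromosome 3 from 95658788 to 95663176 on the plus strand, was barely present. It had 1.89 and 1.45 scaled TPM in GV oocytes, 0.616 and 0.597 in MII oocytes, 0.568 and 0.325 in Btg4wt oocytes, and 0.522 and 0.687 in Btg4tm oocytes. Both GV libraries were above all 6 libraries of MII stage, and the Btg4tm libraries overlapped with both other groups of that stage. *Bcl2l2*, which encodes BCL-W and lies on chromosome 14 from 54883377 to 54888234 on the plus strand, reached at most 0.498 scaled TPM and was listed at 0 in GV replicate 2. *Bcl2*, the founding member of the family, on chromosome 1 from 106538178 to 106714274 on the minus strand, had 0.197 and 0.162 scaled TPM in Btg4wt oocytes, was listed at 0 in Btg4tm replicate 1 and had 0.144 in Btg4tm replicate 2. No fold change is given for *Bcl2* or *Bcl2l2*, because neither passed the filter.

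**Figure D1:**
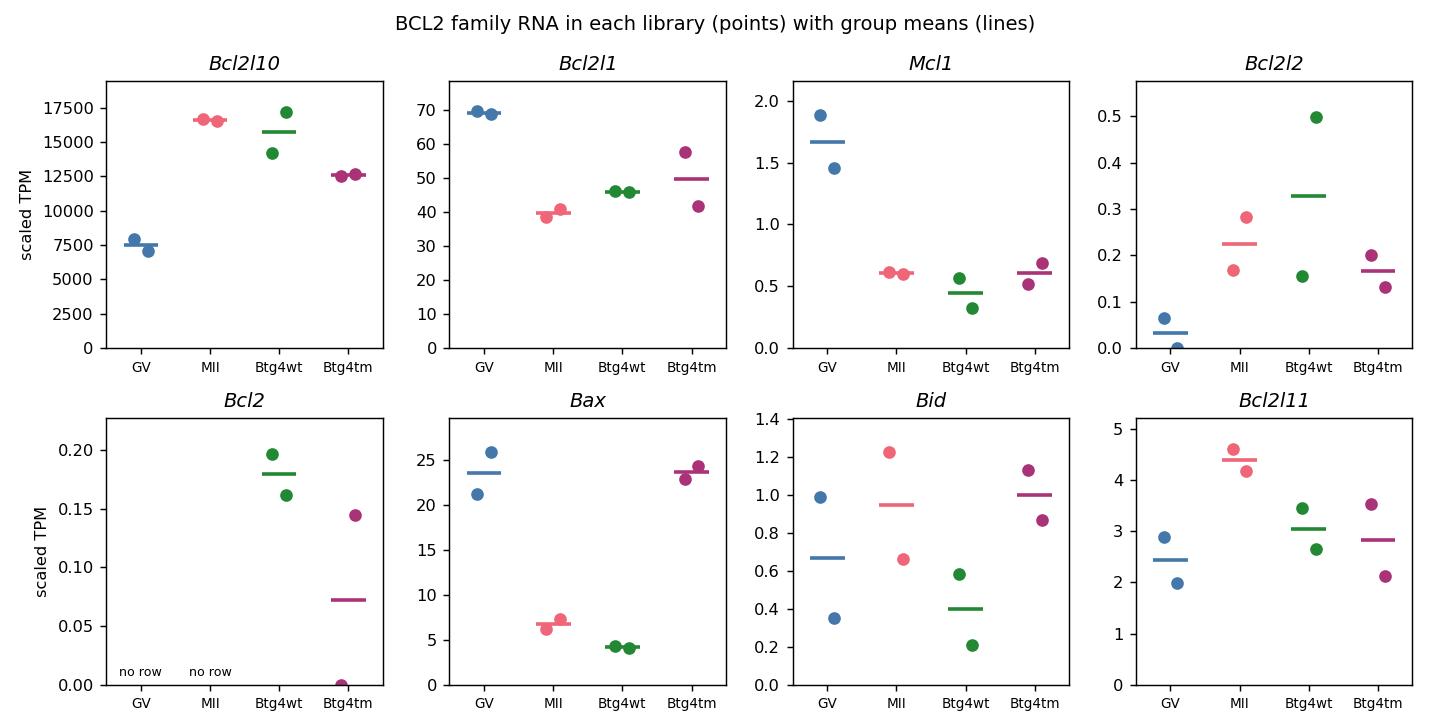
Scaled TPM (vertical axes, linear and different for each gene) of the 8 listed members in the libraries of GV, MII, Btg4wt and Btg4tm oocytes; each point is a library and each line the mean of 2 libraries. *Bcl2l10* is lowest in the GV libraries (7093 and 7975), whereas *Bax* is high in GV and Btg4tm libraries (21.3 to 25.9) and low in MII and Btg4wt libraries (4.08 to 7.38); *Bcl2* has no row for GV and MII oocytes.

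Among the effectors, *Bax*, on chromosome 7 from 45461697 to 45466898 on the minus strand, had the largest fitted difference of the 6 tested members in both the maturation and the injection comparison. It had 21.3 and 25.9 scaled TPM in GV oocytes, 6.20 and 7.38 in MII oocytes, 4.31 and 4.08 in Btg4wt oocytes, and 22.9 and 24.3 in Btg4tm oocytes. The GV and Btg4tm libraries overlapped with each other and stood above the MII and Btg4wt libraries without overlap. Of the exonic bases of *Bax*, 12.18% lie in *Gm45808*, a gene annotated on the same strand, so reads from them cannot be assigned to *Bax* alone.

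The BH3-only genes among the members, *Bcl2l11* and *Bid*, were low throughout, unlike *Bik*, *Bnip3* and *Bnip3l*, BH3-only genes outside the members. In GV oocytes *Bik*, *Bnip3* and *Bnip3l* had means of 44.0, 40.9 and 151 scaled TPM. *Bad*, at 2.50, and *Pmaip1*, at 0.385, were low there as well. *Bcl2l11*, which encodes the activator BIM and lies on chromosome 2 from 128126038 to 128162547 on the plus strand, had 2.88 and 1.99 scaled TPM in GV oocytes, 4.61 and 4.17 in MII oocytes, 3.45 and 2.65 in Btg4wt oocytes, and 3.53 and 2.12 in Btg4tm oocytes. Both MII libraries were above all others, and the other 3 groups overlapped. *Bid*, which links death receptors to mitochondria and lies on chromosome 6 from 120891930 to 120916853 on the minus strand, had 0.990 and 0.350 scaled TPM in GV oocytes, 1.23 and 0.664 in MII oocytes, 0.586 and 0.209 in Btg4wt oocytes, and 1.13 and 0.869 in Btg4tm oocytes. Its replicates differed by as much as its groups did. Of the exonic bases of *Bid*, 17.69% overlap *Bcl2l13* on the opposite strand, and since the counting ignored strand, reads from the overlap cannot be assigned to either gene.

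In order of level, GV oocytes held 7534 ± 623 scaled TPM (SD, n = 2) of *Bcl2l10*, 69.2 ± 0.781 of *Bcl2l1*, 23.6 ± 3.28 of *Bax*, 2.44 ± 0.629 of *Bcl2l11*, 1.67 ± 0.305 of *Mcl1* and 0.670 ± 0.453 of *Bid*. The libraries of neighbours in this order did not overlap, although the lower *Bcl2l11* value, 1.99, and the higher *Mcl1* value, 1.89, were closer than the replicates of either gene. The order of the first 4 was the same in the means of all groups. In Btg4wt oocytes *Bax*, at 4.19 ± 0.165 scaled TPM (SD, n = 2), was close to *Bcl2l11*, at 3.05 ± 0.570, while in Btg4tm oocytes the corresponding levels were 23.6 ± 0.979 and 2.83 ± 0.996.

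Maturation was examined by comparing MII with GV oocytes. *Bcl2l10* rose and *Bax* fell, and, with *Mcl1* set aside, none of the other 3 tested members was called. The log2 fold change was 1.14 for *Bcl2l10* (standard error 0.13, adjusted p = 9.8e-05 from limma) and -1.66 for *Bax* (standard error 0.17, adjusted p = 5.7e-05 from limma). Both calls held without any 1 library, at log2 fold changes of 1.06 to 1.23 for *Bcl2l10* and -1.79 to -1.51 for *Bax*. The mean level of *Bcl2l10* in MII oocytes was 2.2 times that in GV oocytes, and that of *Bax* in GV oocytes was 3.48 times that in MII oocytes. Leaving *Mcl1* aside, 1 of 5 members was higher, against 12.5% of all genes tested, and 1 was lower, against 24% of all genes, so that 40% were called where 36.5% of all genes were. The libraries of the groups did not overlap for 4 of these 5, against 82.7% of all genes. The median log2 fold change was 0.23 over the 5 members and -0.00 over all genes.

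*Bcl2l1* missed the fold criterion at a value of -0.79 (standard error 0.15, adjusted p = 0.0021 by limma), both MII libraries being below both GV libraries. The fitted value for *Mcl1*, which passed the filter only through the GV libraries, was -0.73. *Bcl2l11* had a log2 fold change of 0.66 with a 95% confidence interval from 0.07 to 1.25 (adjusted p = 0.051 from limma). For *Bid* the interval ran from -0.42 to 0.88, which leaves its direction undetermined, and mitochondrial scaling gave -0.72 (adjusted p = 0.0496 from limma), short of the fold criterion.

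The direction of *Bcl2l10* depended on the scaling between libraries, and that of *Bax* did not. Scaling to the mitochondrially encoded RNAs, whose share was higher in MII than in GV oocytes, moved the median of all genes to -1.74 and gave *Bcl2l10* a log2 fold change of -1.08 (adjusted p = 0.00071 from limma), which was still 0.66 above that median. Quantile normalization moved the median to 0.27 and gave *Bcl2l10* a value of 0.17 (adjusted p = 0.14 from limma), or -0.09 relative to the median, since this method ties a gene's value to its rank and *Bcl2l10* ranked 8 in GV and 6 in MII libraries. With TPM as deposited the median was -0.13 and *Bcl2l10* had 0.98 (adjusted p = 9.8e-05 from limma), just short of the fold criterion. *Bax* was lower under each of these scalings, with log2 fold changes from -1.35 under quantile normalization to -3.65 under mitochondrial scaling, and relative to the median of all genes it had values from -1.91 to -1.62.

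**Figure D2:**
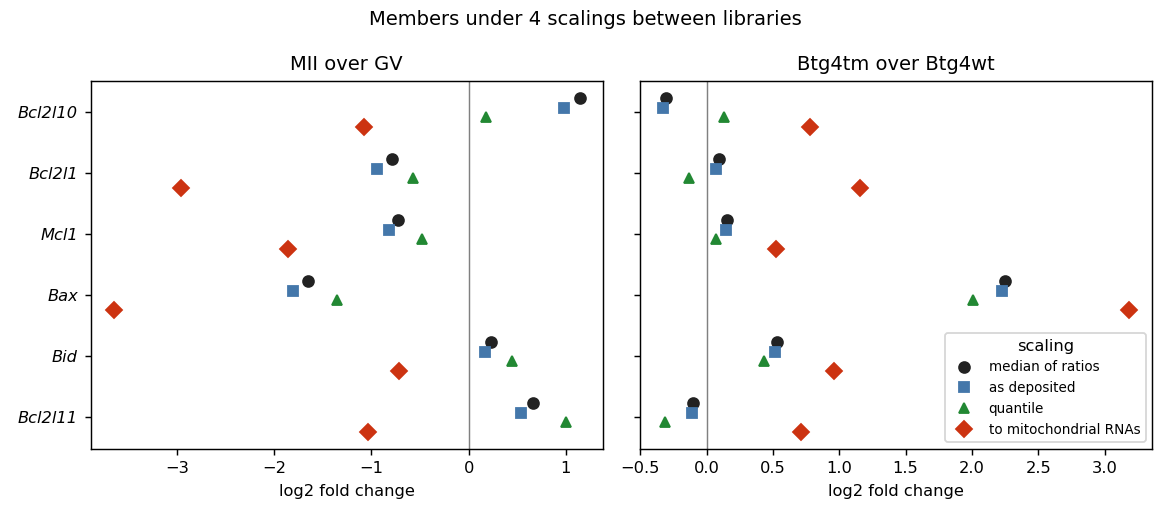
Log2 fold change (horizontal axes) of the 6 tested members in MII over GV oocytes (left) and Btg4tm over Btg4wt oocytes (right) under 4 scalings between libraries, shown by the symbols in the key. *Bax* stays on the same side of 0 in both panels, whereas *Bcl2l10* crosses 0 in MII over GV oocytes only with mitochondrial scaling (-1.08) and lies on either side of 0 in Btg4tm over Btg4wt oocytes (-0.32 to 0.78).

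The effect of the alanine form of BTG4 was examined by comparing oocytes labelled Btg4tm with those labelled Btg4wt, and *Bax* was the member that stood out. Its log2 fold change was 2.25 (standard error 0.17, 95% confidence interval from 1.86 to 2.63, adjusted p = 2.0e-05 from limma), and its mean level was 5.64 times that in Btg4wt oocytes. It was called under all 19 alternative settings of the fit, with log2 fold changes of 2.2 to 2.3 when any 1 library was left out. With 1 of 6 tested members higher and 0 lower, the family stood beside 18.1% of all genes higher, 7.94% lower and 26.1% called in either direction. By limma, 2 of the 6 had an unadjusted p under 0.05, against 7759 of all 13968 genes. The libraries of 3 of the 6 did not overlap, against 74.3% of all genes. The median log2 fold change was 0.12 over the 6 members and 0.01 over all genes.

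*Bcl2l10* was below the Btg4wt libraries in both Btg4tm libraries, with a log2 fold change of -0.31 (95% confidence interval from -0.60 to -0.02, adjusted p = 0.074 from limma), and it was not called. This sign turned with the scaling, to 0.13 under quantile normalization and 0.78 under mitochondrial scaling. *Bcl2l1* had a log2 fold change of 0.09 with an interval from -0.26 to 0.44 (adjusted p = 0.66 from limma), so a change of the size seen for *Bax* lay outside it, but with mitochondrial scaling it was called higher at 1.15 (adjusted p = 0.0027 from limma), or 0.28 above a median of all genes of 0.88. The intervals were -0.34 to 0.65 for *Mcl1*, -0.69 to 0.49 for *Bcl2l11* and -0.12 to 1.18 for *Bid*.

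The mitochondrial share given above was low in the GV and Btg4tm libraries, where *Bax* was high. The cumulus and granulosa markers were examined in the same libraries. Over the 3 markers with a row in all tables, the summed level was 21.4 and 21.8 TPM in GV oocytes, 24.9 and 26.6 in MII oocytes, 25.3 and 21.1 in Btg4wt oocytes, and 29.1 and 22.5 in Btg4tm oocytes. This sum was lower in GV than in MII oocytes, unlike *Bax*, and overlapped between Btg4wt and Btg4tm oocytes. Most of it was *Cyp19a1*, the aromatase gene, with 15.7 and 17.3 scaled TPM in GV oocytes, 25.4 and 26.8 in MII oocytes, 23.4 and 20.5 in Btg4wt oocytes, and 19.2 and 18.0 in Btg4tm oocytes. Its libraries stood in the reverse order to those of *Bax* in both comparisons. *Inha*, a granulosa cell gene, had 4.37 and 2.11 scaled TPM in GV oocytes, 0 and 0.532 in MII oocytes, 1.88 and 1.09 in Btg4wt oocytes, and 9.83 and 5.18 in Btg4tm oocytes. *Ptgs2*, which cumulus cells induce at ovulation, had 0.182 and 0.162 scaled TPM in Btg4wt oocytes, 0.390 and 0.609 in Btg4tm oocytes and at most 0.271 in the GV and MII libraries. *Fshr*, the granulosa cell receptor for follicle-stimulating hormone, had a row only in the tables of injected oocytes, with 0.0587 and 0.157 scaled TPM in Btg4wt and 0.473 and 1.49 in Btg4tm oocytes. *Inha*, *Ptgs2* and *Fshr* were thus higher in both Btg4tm libraries than in both Btg4wt libraries, as *Bax* was. *Hsd17b1* had a row only for the GV and MII libraries, at 0.438 to 0.469 scaled TPM. *Amh*, *Amhr2*, *Inhba*, *Foxl2*, *Has2*, *Ptx3* and *Tnfaip6* had no row in these tables. The part of other cells and of the mitochondrial share in the levels of *Bax* was not tested.

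Wild-type BTG4 itself was assessed by comparing Btg4wt with MII oocytes, with the reservation that the injection itself distinguishes these groups as well. Here 0 of the 6 members and 0 of the 13968 genes were called (0%) by limma, with 1 of the 6 and 1655 of all genes at an unadjusted p under 0.05. That member was *Bax*, with a log2 fold change of -0.58 (95% confidence interval from -0.96 to -0.20, adjusted p = 0.28 from limma). The libraries of 5 of the 6 did not overlap, against 44.9% of all genes. *Bcl2l10* had an interval from -0.38 to 0.20 and *Bcl2l1* one from -0.14 to 0.56. The median over the 6 members was -0.29 and over all genes 0.02.

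Finally, Btg4tm oocytes were set against GV oocytes, a comparison that shares its libraries with the comparisons above and is not independent of them. For *Bax* the log2 fold change was 0.01 with a 95% confidence interval from -0.38 to 0.39 (adjusted p = 0.98 from limma). For *Bcl2l10* it was 0.75 (standard error 0.13, adjusted p = 0.011 from limma), short of the fold criterion. *Bcl2l1* had -0.49 (adjusted p = 0.074 from limma), and the fitted value for *Mcl1* was -0.73. Leaving *Mcl1* aside, 0 of 5 members were called by limma in either direction, against 1.02% of all genes higher, 1.02% lower and 2.04% in all. By limma, 2 of the 5 had an unadjusted p under 0.05, against 4147 of all 13968 genes. The libraries of 2 of the 5 did not overlap, against 59.5% of all genes, and the median was 0.14 over the 5 members and -0.08 over all genes.

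**Figure D3:**
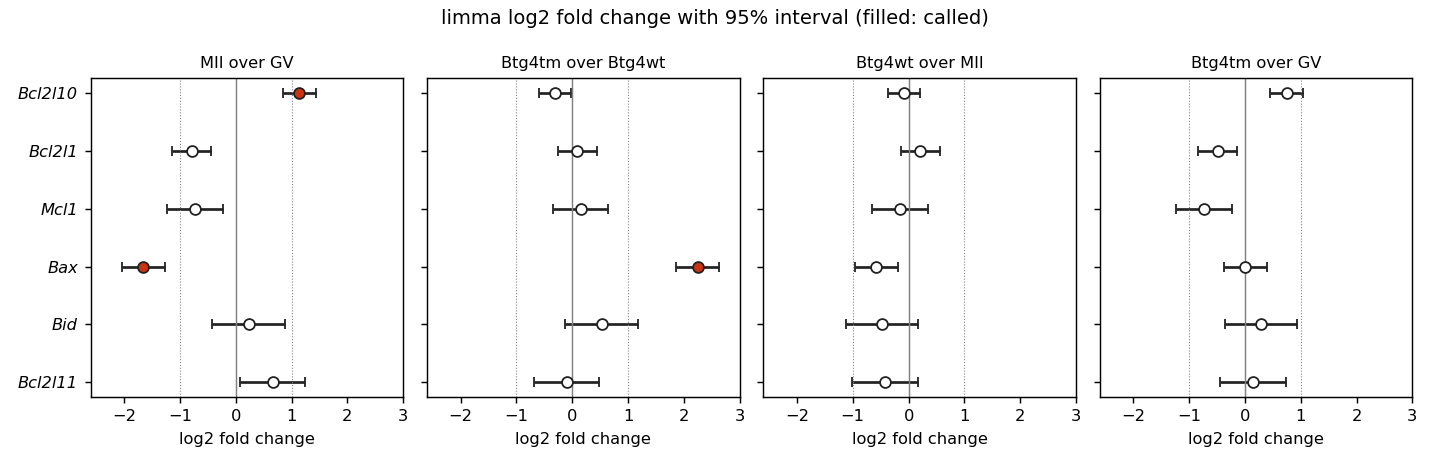
Log2 fold change (horizontal axes) of the 6 tested members in the 4 comparisons, with bars for the 95% confidence interval from limma, filled points for called members and dotted lines at -1 and 1. Called are *Bcl2l10* (1.14) and *Bax* (-1.66) in MII over GV oocytes and *Bax* (2.25) in Btg4tm over Btg4wt oocytes.

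A ratio of 2 members within a library does not depend on the scaling between libraries. *Bcl2l10* RNA exceeded *Bax* RNA 375 and 274 times in GV oocytes, 2689 and 2237 times in MII oocytes, 3301 and 4213 times in Btg4wt oocytes, and 547 and 522 times in Btg4tm oocytes. The MII and Btg4wt libraries stood above the GV and Btg4tm libraries, with no library in between. The ratio of *Bcl2l1* to *Bax* was 3.28 and 2.65 in GV oocytes, 6.21 and 5.53 in MII oocytes, 10.7 and 11.3 in Btg4wt oocytes, and 2.51 and 1.72 in Btg4tm oocytes. The Btg4tm libraries were the lowest and the Btg4wt libraries the highest. The ratio of *Bcl2l10* to *Btg4*, another abundant maternal RNA, was between 2.54 and 3.01 in the 4 uninjected libraries. These ratios are given as descriptions, because 2 libraries against 2 cannot give an exact two-sided permutation p below 0.333.

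**Figure D4:**
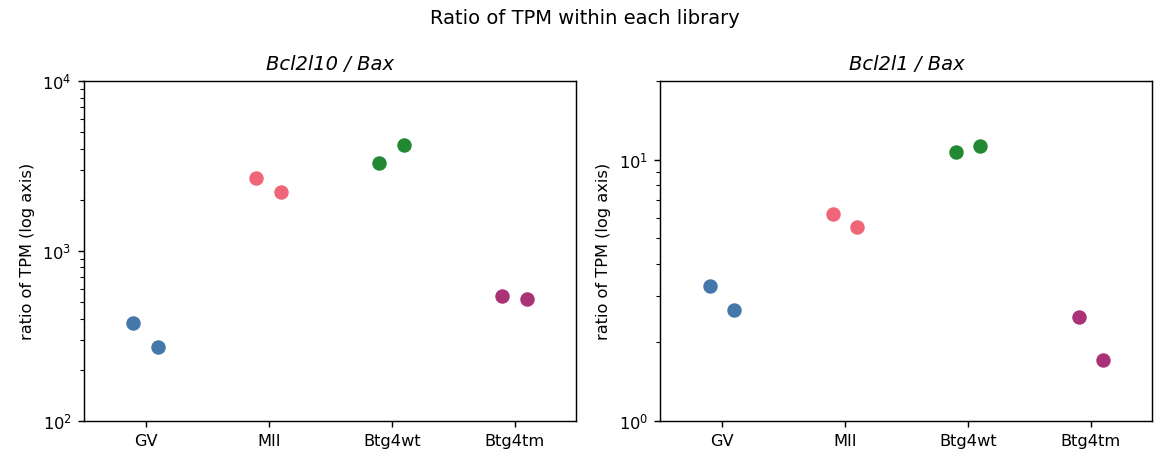
Ratio of TPM of *Bcl2l10* to *Bax* (left) and of *Bcl2l1* to *Bax* (right) in each library, on log axes, with 1 point per library for GV, MII, Btg4wt and Btg4tm oocytes. The ratio of *Bcl2l10* to *Bax* is 274 to 547 in GV and Btg4tm libraries and 2237 to 4213 in MII and Btg4wt libraries.

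The RNAs whose profile over the 8 libraries was nearest to that of *Bcl2l10*, among 6881 candidates whose mean reached 10 scaled TPM, were *Sde2*, *Snrnp27*, *0610033M10Rik*, *Larp7* and *Sirt4*. Their root mean square distance from the centred *Bcl2l10* profile was 0.0528, 0.0552, 0.0562, 0.0580 and 0.0628 on the log2 scale. *Sde2*, the nearest, had 17.4 and 15.5 scaled TPM in GV oocytes, 37.0 and 37.7 in MII oocytes, 31.2 and 35.0 in Btg4wt oocytes, and 28.9 and 28.0 in Btg4tm oocytes. Its levels were lowest in GV and intermediate in Btg4tm libraries, as those of *Bcl2l10* were. The 8 points share libraries, so this likeness is a description.

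The rest of the apoptosis pathway was examined for comparison. A list of 51 genes was used, of which 41 had a row in all 8 libraries and 38 were tested. In MII compared with GV oocytes 8 were higher (21.1%, against 12.5% of all genes tested), 11 were lower (28.9%, against 24%) and 19 were not called, so that 50% were called where 36.5% of all genes were. The 11 include *Casp6*, which passed the filter only through the GV libraries, the group in which it was high. The 11, the 28.9% and the 50% all count this gene, although its call was favoured by the filter. In Btg4tm compared with Btg4wt oocytes 8 were higher (21.1%, against 18.1% of all genes), 3 were lower (7.89%, against 7.94%) and 27 were not called, so that 28.9% were called, near the 26.1% of all genes. The same shares of all genes stand behind the counts of the smaller groups below, in which a single gene moves the share widely. The medians over the 38 genes were 0.24 and -0.05, so the list as a whole had no single direction in either comparison. With mitochondrial scaling the calls became 0 higher and 29 lower in the first comparison and 18 higher and 0 lower in the second. In Btg4wt compared with MII oocytes 0 of the 38 were called by limma. There 1 had an unadjusted p under 0.05, against 1655 of all 13968 genes. In Btg4tm compared with GV oocytes 0 were higher and 1 was lower. By limma, 11 of the 38 had an unadjusted p under 0.05 in that comparison, against 4147 of all 13968 genes.

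Downstream of the pore, among 6 apoptosome and released factors, 1 was higher and 2 were lower in MII than in GV oocytes, and 2 were higher in Btg4tm than in Btg4wt oocytes, against 12.5%, 24% and 18.1% of all genes. *Cycs*, which encodes the cytochrome c that BAX pores release, had 181 and 163 scaled TPM in GV oocytes, 50.2 and 47.2 in MII oocytes, 46.9 and 43.7 in Btg4wt oocytes, and 169 and 188 in Btg4tm oocytes. The groups fell into the same pairs as for *Bax*. The share of all genes with this pairing is not given here. The paper reports that most transcripts raised with the mutant form were ones that normally decline by MII. The pairing is therefore not particular to apoptosis genes. The log2 fold changes of *Cycs* were -1.80 in MII over GV oocytes (adjusted p = 4.8e-06 from limma) and 1.95 in Btg4tm over Btg4wt oocytes (adjusted p = 5.4e-06 from limma). *Cycs* has processed copies elsewhere in the mouse genome and reads of low mapping quality were dropped, so its level is less certain. *Endog*, a mitochondrial nuclease, had 33.1 and 43.0 scaled TPM in GV oocytes, 2.12 and 4.29 in MII oocytes, 3.00 and 3.37 in Btg4wt oocytes, and 15.5 and 20.7 in Btg4tm oocytes. The *Endog* values of the Btg4tm libraries lay between those of the GV libraries and those of the MII and Btg4wt libraries. Its log2 fold changes were -3.25 (adjusted p = 2.3e-05 from limma) and 2.18 (adjusted p = 0.00031 from limma). *Apaf1*, the scaffold of the apoptosome, went the other way in maturation, with 3.86 and 3.34 scaled TPM in GV oocytes and 11.4 and 9.50 in MII oocytes (fitted log2 change 1.31, adjusted p = 0.00047 from limma), a sign that turned to -0.59 with mitochondrial scaling.

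At the outer membrane, where BAX acts, all 3 voltage-dependent anion channels were called in maturation, 1 higher and 2 lower. *Vdac3* had 208 and 196 scaled TPM in GV oocytes, 58.4 and 57.2 in MII oocytes, 64.9 and 56.5 in Btg4wt oocytes, and 185 and 184 in Btg4tm oocytes. *Vdac2*, whose product holds BAK in check, had 201 and 222 in GV oocytes and 63.0 and 89.6 in MII oocytes. *Vdac1* had 9.11 and 11.9 in GV oocytes, 25.9 and 21.3 in MII oocytes, 22.0 and 25.4 in Btg4wt oocytes, and 8.60 and 7.29 in Btg4tm oocytes. *Vdac3* thus followed the pairing of *Bax*, and *Vdac1* showed the reverse. In MII over GV oocytes the log2 fold changes were -1.79 for *Vdac3*, -1.48 for *Vdac2* and 1.11 for *Vdac1* (adjusted p = 3.8e-06, 0.00070 and 0.00099 from limma), the last turning to -0.98 with mitochondrial scaling and short of the fold criterion with TPM as deposited (0.96) and without GV replicate 1 (0.93) or MII replicate 1 (0.98). In Btg4tm over Btg4wt oocytes they were 1.59 for *Vdac3* and -1.47 for *Vdac1* (adjusted p = 1.1e-05 and 0.00031 from limma), and *Vdac2*, at 0.95, was not called. With mitochondrial scaling *Vdac1* fell to -0.45 (adjusted p = 0.17 from limma) and its call was lost, while *Vdac2* was called at 2.03 (adjusted p = 0.00016 from limma).

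The inhibitors of apoptosis numbered 5, of which 2 were higher and 1 was lower in MII than in GV oocytes, and 1 was higher in Btg4tm than in Btg4wt oocytes. The 1 that was lower and then higher was *Birc5*, whose product survivin also serves the chromosomal passenger complex in cell division. It had 952 and 906 scaled TPM in GV oocytes, 419 and 403 in MII oocytes, 394 and 386 in Btg4wt oocytes, and 798 and 849 in Btg4tm oocytes. Its log2 fold changes were -1.17 (adjusted p = 1.3e-05 from limma) and 1.08 (adjusted p = 3.4e-05 from limma), the second just short of the fold criterion under quantile normalization (0.95). *Birc6*, a large ubiquitin ligase, was higher in MII oocytes with a log2 fold change of 1.19 (adjusted p = 0.00037 from limma), against -0.74 with mitochondrial scaling.

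For the turnover of MCL1, 4 genes were examined. *Usp9x*, a deubiquitinase that stabilizes MCL1, had 72.1 and 104 scaled TPM in GV oocytes, 214 and 200 in MII oocytes, 223 and 215 in Btg4wt oocytes, and 85.7 and 105 in Btg4tm oocytes. *Btrc*, a ubiquitin ligase subunit that targets MCL1, had 59.7 and 65.7 in GV oocytes, 12.9 and 10.9 in MII oocytes, 12.9 and 10.4 in Btg4wt oocytes, and 60.7 and 47.6 in Btg4tm oocytes. On this scaling *Usp9x* and *Btrc* took opposite courses in both comparisons. *Usp9x* had log2 fold changes of 1.25 and -1.20 (adjusted p = 0.00035 and 0.00066 from limma), the first turning to -0.95 with mitochondrial scaling and just short of the fold criterion (0.99) without GV replicate 1, and the second falling to -0.12 with mitochondrial scaling (adjusted p = 0.64 from limma), so that its call was lost. For *Btrc* they were -2.31 and 2.12 (adjusted p = 1.2e-05 and 3.0e-05 from limma), and -4.39 and 3.15 with mitochondrial scaling, under which both genes were lower in MII than in GV oocytes. *Huwe1* and *Fbxw7*, both MCL1 ligase genes, were not called in either comparison, but their signs were those of *Usp9x* and not of *Btrc*. In MII over GV oocytes they had 0.66 and 0.91 (adjusted p = 0.025 and 0.0081 from limma). In Btg4tm over Btg4wt oocytes they had -0.97 and -0.42 (adjusted p = 0.0060 and 0.16 from limma).

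Within the wider family, 3 of 7 further genes were tested. *Bcl2l13*, a mitochondrial member that shares exonic bases with *Bid*, had 9.99 and 9.25 scaled TPM in GV oocytes, 24.1 and 19.8 in MII oocytes, 21.2 and 19.2 in Btg4wt oocytes, and 8.0 and 7.61 in Btg4tm oocytes. Its course on this scaling was opposite to that of *Bax*. The log2 fold changes of *Bcl2l13* were 1.11 (adjusted p = 0.00038 from limma) and -1.27 (adjusted p = 0.00028 from limma), the first turning to -0.96 with mitochondrial scaling and just short of the fold criterion with TPM as deposited (0.96) and without MII replicate 1 (0.98). The second fell to -0.26 with mitochondrial scaling (adjusted p = 0.37 from limma), and its call was lost. *Bcl2l12* was lower in MII than in GV oocytes and higher in Btg4tm than in Btg4wt oocytes, and *Bcl2l15* was not called. Of 8 other BH3-only genes 4 were tested, and 1 of them, *Bad*, was lower in MII than in GV oocytes. In Btg4tm compared with Btg4wt oocytes 0 of the 4 were called by limma. There 2 of the 4 had an unadjusted p under 0.05, against 7759 of all 13968 genes. *Pmaip1*, the gene of the MCL1 antagonist NOXA, was listed but below the filter.

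Upstream, 4 of 6 death receptor genes were tested. The adaptors *Fadd* and *Tradd* were lower in MII than in GV oocytes and higher in Btg4tm than in Btg4wt oocytes. The other 2, *Cflar* and *Ripk1*, were not called, and their signs were opposite to those of *Fadd* and *Tradd*. Their log2 fold changes were 0.35 and 0.25 in MII over GV oocytes and -0.08 and -0.87 in Btg4tm over Btg4wt oocytes. *Fadd* had 13.6 and 14.9 scaled TPM in GV oocytes, 1.35 and 2.98 in MII oocytes, 2.24 and 2.94 in Btg4wt oocytes, and 8.86 and 11.5 in Btg4tm oocytes, with log2 fold changes of -2.32 and 1.63 (adjusted p = 0.00014 and 0.0015 from limma). Of 5 caspases tested, *Casp6* passed the filter only through the GV libraries, the group in which it was high. Its fitted log2 change in MII over GV oocytes, -1.15, is therefore given as a value, and the other 4 were not called. In Btg4tm compared with Btg4wt oocytes 0 of the 5 were called by limma. In the latter comparison 3 of the 5 had an unadjusted p under 0.05, against 7759 of all 13968 genes. Of 4 damage response genes, which include *Trp63*, the guardian of the resting oocyte, *Chek1* and *Trp53* had higher levels in MII than in GV oocytes. *Chek1* had 338 and 333 scaled TPM in GV oocytes and 877 and 843 in MII oocytes (fitted log2 change 1.35, adjusted p = 5.8e-06 from limma). *Trp53* had 33.8 and 32.8 in GV oocytes and 69.4 and 68.4 in MII oocytes (fitted log2 change 1.03, adjusted p = 5.8e-05 from limma). With mitochondrial scaling these turned to -0.86 for *Chek1* and -1.15 for *Trp53*, and with TPM as deposited *Trp53*, at 0.87, missed the fold criterion. In Btg4tm over Btg4wt oocytes 0 of the 4 were called by limma, and 4 had an unadjusted p under 0.05, against 7759 of all 13968 genes. The log2 fold changes were -0.82 for *Trp63*, -0.70 for *Chek1*, -0.38 for *Trp53* and 0.70 for *Chek2*. With mitochondrial scaling *Chek1* and *Trp53* turned to 0.39 and 0.69.

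**Figure D5:**
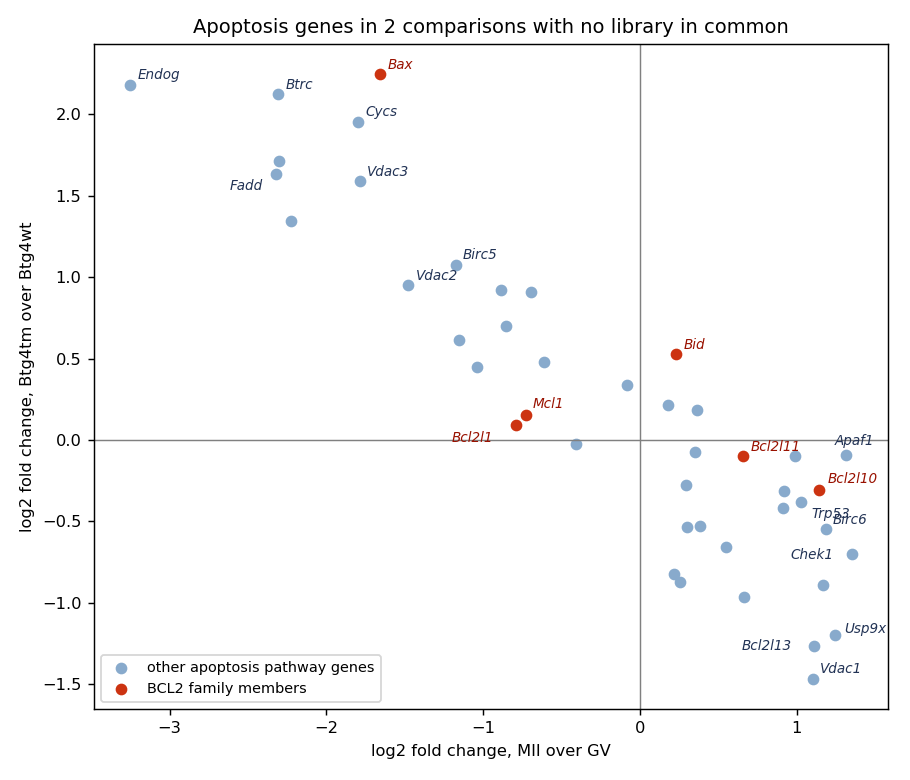
Log2 fold change in Btg4tm over Btg4wt oocytes (vertical axis) against that in MII over GV oocytes (horizontal axis) for the 6 tested members (red) and 38 other apoptosis genes (blue); the comparisons have no library in common, and labels mark members and the pathway genes given with values. *Bax* lies at -1.66 and 2.25 beside *Cycs* and *Vdac3*, whereas *Bcl2l10* lies at 1.14 and -0.31.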

How the data were processed

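Mouse oocyte poly(A) RNA was sequenced in 8 Smart-seq2 libraries, 2 per group, with groups and replicate numbers taken from the labels. The authors trimmed reads with Trim Galore 0.6.10, aligned them to GRCm38 with HISAT2 2.2.0, counted them without regard to strand with featureCounts 2.0.6 at a minimum mapping quality of 10, and deposited TPM per gene symbol. Counts were not used here, so the authors' DESeq2 test was replaced. The labels' protocol speaks of 3 samples per group, and 2 were used.

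The 15962 genes listed in all tables were brought to a common scale (median of ratios) and fitted as log2(scaled TPM + 1) with limma 3.58.1 in R 4.3.3 (eBayes with trend, 4 group coefficients, 8 libraries). The filter, at least 1 TPM in 2 or more libraries, left 13968 genes, and the Benjamini-Hochberg adjustment ran across all genes. Calls required an adjusted p-value below 0.05 and a log2 fold change beyond 1 in either direction. TPM keep no depth, so precision rests on 2 libraries per group. The fit was tested on simulated data in which only genes well above the filter were given changes, all of them large. That test does not cover low members or changes near the fold criterion. The members and all lists were chosen with earlier results of these data known. Pathway genes were given with values when called and at a mean of 5 scaled TPM or more, at most 3 per group of genes and comparison. Genes like *Bcl2l10* were the 5 with the smallest root mean square distance. The 19 alternatives covered scaling, pseudocount, filter, libraries fitted, block, variance model, thresholds and leaving out each library. Positions and transcript ends came from GENCODE M21.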

Additional observations from a re-analysis of the deposited data

How the results depend on the processing

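The count of members higher in MII than in GV oocytes, 1, became 0 with TPM as deposited, quantile normalization and mitochondrial scaling. The count lower, 1, became 5 with mitochondrial scaling, 2 with a pseudocount of 0.1 and 3 without a minimum fold change, or 4, 1 and 2 without *Mcl1*, which passed the filter only through GV. Members higher in Btg4tm than in Btg4wt oocytes numbered 2 with mitochondrial scaling, in place of 1. Against GV oocytes, Btg4tm oocytes had 1 member higher without a minimum fold change and 2 lower (1 without *Mcl1*) with mitochondrial scaling, in place of 0. Pathway genes higher in MII than in GV oocytes, 8, numbered 5 as deposited and 0 with mitochondrial scaling, and those lower, 11 with *Casp6* counted, numbered 29 with mitochondrial scaling. Those higher in Btg4tm than in Btg4wt oocytes, 8, numbered 18 with mitochondrial scaling and 13 without a minimum fold change. Those lower, 3, numbered 7 with quantile normalization, 0 with mitochondrial scaling, 5 with a pseudocount of 0.1 and 10 without a minimum fold change. Mitochondrial scaling turned the sign in MII over GV oocytes of *Bcl2l10* (-1.08), *Bcl2l11* (-1.03), *Bid* (-0.72), *Bcl2l13* (-0.96), *Apaf1* (-0.59), *Birc6* (-0.74), *Usp9x* (-0.95), *Vdac1* (-0.98), *Chek1* (-0.86) and *Trp53* (-1.15). Of these, only *Bcl2l10*, *Bcl2l11* and *Trp53* were called lower, and the others missed the fold criterion. This scaling moved the median of all genes by its construction, and why the mitochondrial share differed was not tested. It ended the calls in Btg4tm over Btg4wt oocytes of *Bcl2l13* (-0.26), *Usp9x* (-0.12) and *Vdac1* (-0.45) and gave a call to *Bcl2l1* (1.15). With TPM as deposited *Bcl2l13* (0.96), *Vdac1* (0.96) and *Trp53* (0.87) lost the call in MII over GV oocytes, and under quantile normalization *Birc5* (0.95) lost that in Btg4tm over Btg4wt oocytes. Without a given library, the call in MII over GV oocytes was lost for *Bcl2l13* (0.98 without MII replicate 1), for *Usp9x* (0.99 without GV replicate 1) and for *Vdac1* (0.93 without GV replicate 1 and 0.98 without MII replicate 1), each by missing the fold criterion, while *Vdac2* in Btg4tm over Btg4wt oocytes was gained (1.19 without replicate 2 of either group).

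Same-numbered libraries showed no shared deviation, with correlations of their deviations from -0.05 to 0.06. Whether equal numbers share an origin is not stated, and these correlations cannot settle it. With the replicate block, 5094, 3636, 1 and 285 of all genes were called in MII over GV, Btg4tm over Btg4wt, Btg4wt over MII and Btg4tm over GV oocytes, against 5103, 3643, 0 and 285 without it, and the block changed no call of a member. Depth cannot be had from TPM, so members near or below 1 TPM have an unknown counting error.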
